A study of Bos taurus with 8 samples.

Results

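The nuclear pore and nuclear transport genes of the fetal liver were compared between low (LN) and high (HN) maternal nutrition. Members were chosen by a rule on gene symbols, with earlier results of these data known. They were nucleoporins (symbols beginning with NUP and a number, with TPR, SEH1L and SEC13), exportins (XPO), importins (IPO, KPNA, KPNB and TNPO), the Ran-binding proteins (RANBP), RAN, RANGAP1, NXF1 and NXT1. The rule took 48 of the 12603 genes that had a matched probe, and 14 further genes that it names had none and were not analysed here (IPO5, IPO9, KPNA3, KPNA5, NUP98, NUP107, NUP210L, NUP62CL, RANBP3L, RANBP6, RANBP9, RANBP17, XPO5 and XPO6). All 48 genes were detected, through 115 of their 120 probes, a probe being detected if the scanner software placed it well above background in 4 or more fetuses. LN dams were given 60% and HN dams 120% of the nutritional requirement until the Japanese Black fetuses were taken by cesarean section at 8.5 months of gestation, around day 260. All fetuses came from male-sorted semen of a single sire, and the methods chose for measurement the LN fetuses of lowest and the HN fetuses of highest body weight, so nutrition and fetal size were chosen together. Each of 8 arrays held 1 fetus by its label (L5, L6, L8 and L9 in LN, L1, L2, L3 and L10 in HN), whereas the series' general text speaks of RNA pooled within a group. The arrays are treated here as 8 fetuses. The LN fetuses shared slide 1 and the HN fetuses slide 2, so slide, scan and nutrition cannot be told apart. Between 32635 and 34369 of the 43803 spots of an array were well above background and 0 were saturated, and precision is limited by there being 4 arrays a group. Values are log2 signals after quantile normalization, the brightest detected probe stands for a gene, and differences are LN minus HN.

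A nuclear pore is a large ring built of many copies of the nucleoporins, through which proteins and RNA pass between nucleus and cytoplasm. Import receptors bind cargo in the cytoplasm and release it in the nucleus when they meet the small GTPase RAN loaded with GTP, while export receptors bind cargo together with RAN-GTP and release it outside. The direction comes from keeping the factor that loads RAN with GTP on chromatin and the factor that triggers its hydrolysis at the cytoplasmic face of the pore. In the liver, as in other tissues, the import of transcription factors and the export of mRNA, tRNA and ribosomal subunits pass this gate.

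Of the 48 genes, 35 had a higher and 13 a lower mean log2 signal in LN than in HN. The higher share was 72.9% of the members, beside 51.6% of the 10861 genes tested. The median difference over the members was 0.12 on the log2 scale, or 8.31% in signal, and the quartiles were -0.03 and 0.23. Over all genes tested the median was 0.01, with quartiles of -0.13 and 0.14. The differences were small: they ranged from -0.31 (KPNA7) to 0.41 (NUP153), and 0 members differed by more than 0.5 on the log2 scale. In bulk liver RNA, fewer cells of a type and less RNA per cell cannot be told apart.

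No member passed limma's test after Benjamini-Hochberg adjustment over all 33440 detected probes. The count was 0 of 48, beside 0.0% of all genes, and the lowest adjusted p of a member was 0.760. At an unadjusted limma p of 0.05, 1 member was higher in LN (NUP160), beside 3.3% of all genes, and 0 were lower, beside 2.75%. The LN and HN fetuses did not overlap for 1 member with higher values in LN, again NUP160, beside 2.59% of all genes, and for 0 with lower values, beside 1.56%. With 48 members, these counts were near or below what the shares over all genes give. They rested on single fetuses: without HN fetus L3 9 members were higher at an unadjusted p of 0.05 (beside 4.15% of all genes) and 9 were higher without overlap (beside 5.75%, 4 against 3 fetuses), while without L9 or L10 0 were higher at that p. The difference was larger than the spread between fetuses of a group (pooled SD) in 20 members, of which 18 were higher in LN, beside 15.3% of all genes, and 2 lower, beside 11.1%. The 95% interval lay within a 2-fold change either way for 47 of 48 members, KPNA7 being the exception.

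**Figure D1:**
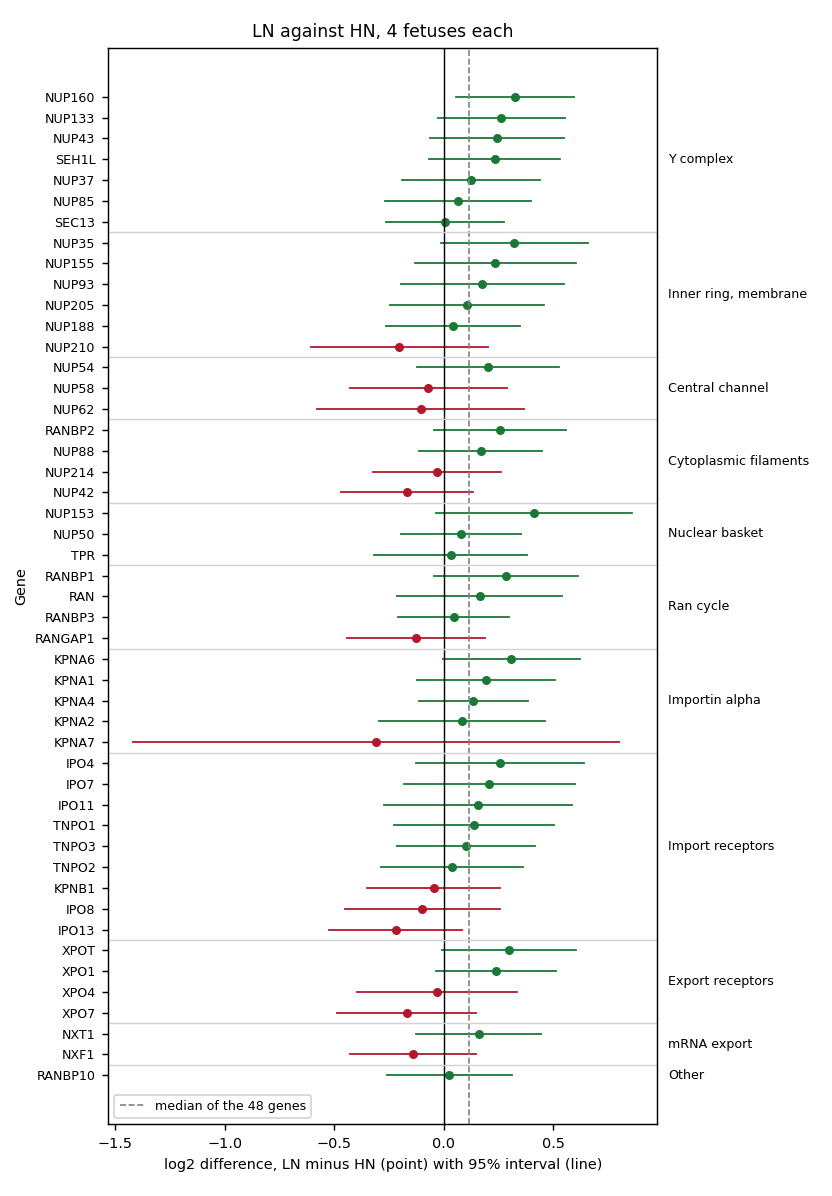
Log2 difference of each of the 48 genes (horizontal axis, LN minus HN) with its 95% interval from limma, n = 4 fetuses per group, grouped by role from the pore scaffold to the export receptors. Green points (35) lie above 0 and red points (13) below, the dashed line marks the median of 0.12, and the interval of NUP160 alone leaves out 0.

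The members' level differed between single fetuses as well as between groups. For each gene, the signal of a fetus was set against the gene's mean over the 8 fetuses. The median of these deviations over the 48 genes was 0.12 in L5, -0.08 in L6, 0.08 in L8 and 0.05 in L9 of LN, and -0.04 in L1, -0.06 in L2, 0.06 in L3 and -0.19 in L10 of HN. Thus the groups overlapped: LN fetus L6 was the next to lowest of all 8, and HN fetus L3 lay above LN fetus L9. HN fetus L10 had the lowest signal of the 8 in 23 members, 47.9% of them, beside 17.5% of all genes. LN fetus L5 had the highest in 18 members, 37.5%, beside 16.2% of all genes. Leaving out L10 lowered the median difference from 0.115 to 0.0716, and leaving out L5 lowered it to 0.0735. The count of members with a higher mean in LN was then 32 and 30, and it was 38 without HN fetus L3. With each fetus left out in turn, 34 members kept the sign of their difference throughout and 14 changed it at least once (IPO11, KPNA2, KPNA7, KPNB1, NUP62, NUP85, NUP188, NUP214, RANBP3, RANBP10, SEC13, TNPO2, TPR and XPO4).

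**Figure D2:**
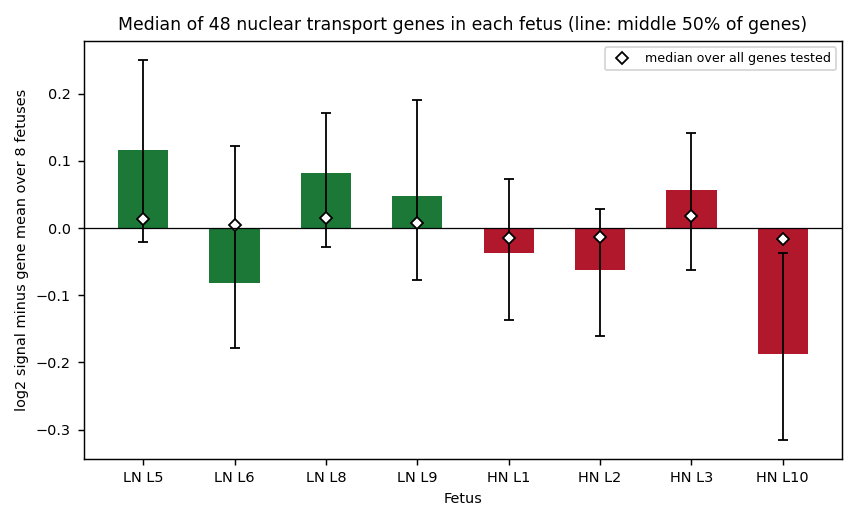
Median over the 48 genes of the log2 signal minus the gene's mean over 8 fetuses, for each LN (green) and HN (red) fetus, with the interquartile range of the genes as a line and the median over all genes tested as a diamond. The HN fetus L10 is the lowest at -0.19 and the LN fetus L5 the highest at 0.12, while all diamonds stay close to 0.

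The labelled tissue and other cell types were examined beside this. Of 12 hepatocyte markers such as ALB and TTR, 11 had a matched probe (APOB had none), and all of these were detected. Their mean log2 signal was 17.6 to 17.7 in LN and 17.5 to 17.7 in HN. Erythroid markers had a higher mean in LN for 11 of 11 detected genes (median difference 1.14), with a mean log2 signal of 6.89 to 9.90 in LN, the highest being L5, and 6.12 to 7.38 in HN. Among them SLC4A1, EPB42, KLF1 and CA1 were not detected. Neutrophil markers were higher in LN for 13 of 14 (median 0.96), at 9.10 to 10.4 in LN and 7.99 to 9.34 in HN. Markers of dividing cells were higher in LN for 7 of 17 (median -0.05), at 8.48 to 9.02 in LN and 8.40 to 9.37 in HN, and the highest was L10. The part of these cells in the members' values was not tested. Of the markers of lymphocytes 0 of 7 were higher, of macrophages 2 of 9, of stellate cells and fibroblasts 4 of 9, of endothelium 7 of 10 and of bile duct 2 of 4, with median differences between -0.14 and 0.09.

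**Figure D3:**
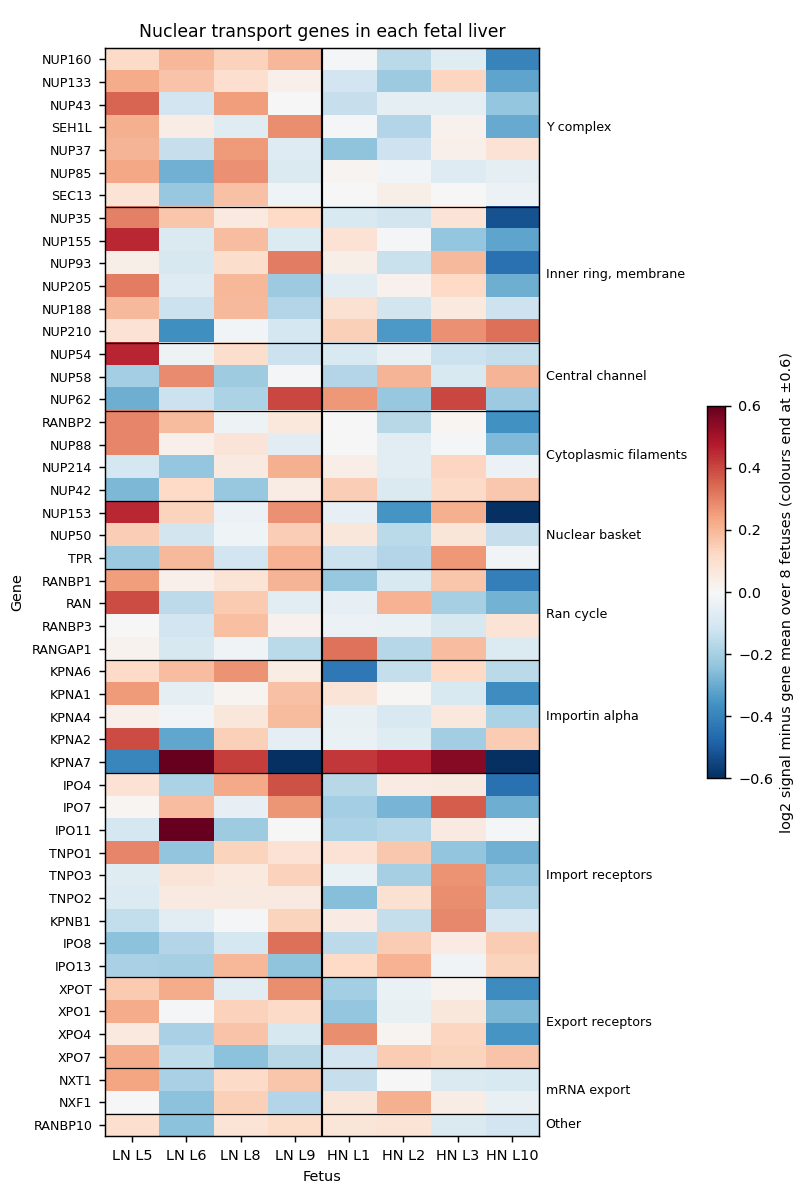
Log2 signal of each gene in each fetus minus the gene's mean over the 8 fetuses (colour, ending at 0.6 either way), with genes grouped by role and ordered by difference, LN fetuses to the left of the vertical line and HN fetuses to the right. The column of HN fetus L10 is blue in most roles, and KPNA7 varies most between fetuses of both groups.

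The Y complex forms the outer rings of the pore scaffold. It had a higher mean in LN in 7 of its 7 genes that the rule took. The median was 0.23, and the differences ran from 0.00 (SEC13, which also coats vesicles leaving the endoplasmic reticulum) to 0.33 (NUP160). Without L5 or without L8 the count was 5 of 7, and without L10 it was 6 of 7. It stayed at 7 of 7 under each scaling and background correction tried, with a median of 0.13 to 0.23. AHCTF1, a further subunit that the name rule does not take, had a lower mean in LN (difference -0.14, SE 0.28, unadjusted limma p 0.644). NUP160, a large subunit of the complex, had log2 signals of 8.81 in L5, 8.89 in L6, 8.83 in L8 and 8.89 in L9 of LN, and 8.67 in L1, 8.53 in L2, 8.61 in L3 and 8.29 in L10 of HN. All 4 LN fetuses lay above all 4 HN fetuses, and L10 was the lowest. The difference was 0.33 (SE 0.12, n = 4 per group), or 25.3% in signal, with an exact permutation p of 0.0286, the smallest that 4 against 4 can give. Its unadjusted limma p was 0.0233 and its adjusted p 0.760, and the call at the unadjusted p was lost without L10 (p 0.0610), without L9 (p 0.0519) and with slide position as a block (p 0.0661). Its other probes differed by 0.15 and 0.67 in the same direction. The one with the difference of 0.67 had signals of 4.32 in L5, 5.16 in L6, 5.04 in L8 and 4.92 in L9 of LN, and 4.46 in L1, 4.39 in L2, 3.88 in L3 and 4.02 in L10 of HN, so that L5 of LN lay below L1 and L2 of HN.

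NUP133, which joins neighbouring Y complexes, differed by 0.26 (SE 0.13, unadjusted p 0.0713), and L3 of HN lay within the LN range. A second NUP133 probe differed by 0.39 and did not overlap, at 7.28 in L5, 6.86 in L6, 7.06 in L8 and 6.76 in L9 of LN, and 6.65 in L1, 6.52 in L2, 6.74 in L3 and 6.49 in L10 of HN. SEH1L and NUP43, small propeller proteins of the same complex, differed by 0.23 and 0.24. In both, 3 of 4 LN fetuses lay above all HN fetuses. NUP37 differed by 0.12 and NUP85 by 0.07, within the spread of the LN fetuses (SD 0.20 and 0.27). With a fetus left out, they ran from 0.06 to 0.19 and from -0.02 to 0.17.

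Among the inner ring and membrane nucleoporins, 5 of 6 had a higher mean in LN, with a median of 0.14 that was 0.04 without L10 and 0.07 without L5. With the mean over probes the median was 0.08. NUP35, an inner ring protein that contacts the nuclear membrane, had 10.94 in L5, 10.80 in L6, 10.69 in L8 and 10.75 in L9 of LN, and 10.54 in L1, 10.52 in L2, 10.72 in L3 and 10.11 in L10 of HN. Of the LN fetuses, 3 lay above all HN fetuses, and L8 lay below L3 of HN. The difference was 0.32 (SE 0.15), the exact permutation p was 0.0571 and the unadjusted limma p 0.0589, and the difference was 0.20 without L10. NUP155 differed by 0.23, NUP93 by 0.18, NUP205 by 0.11 and NUP188 by 0.04, all scaffold proteins of the inner ring. With each fetus left out in turn, these differences ran from 0.12 to 0.30, 0.05 to 0.27, 0.02 to 0.20 and -0.02 to 0.11. A second probe of NUP155 and of NUP188 pointed the other way (-0.14 and -0.03). NUP210, a glycoprotein that spans the pore membrane, was the exception with 9.09 in L5, 8.64 in L6, 8.99 in L8 and 8.90 in L9 of LN, and 9.15 in L1, 8.66 in L2, 9.28 in L3 and 9.34 in L10 of HN. Its 4 LN values lay below the HN mean, but L2 of HN was lower than 3 of them, and the difference was -0.20 (SE 0.18, unadjusted p 0.281, -0.11 without L6, -0.35 without L2 and -0.13 without L10).

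The central channel is filled by nucleoporins rich in phenylalanine-glycine repeats, which form the selective barrier. Of its 3 measured genes, 1 had a higher mean in LN, or 2 without L3. NUP62, the core of the channel complex, had 12.68 in L5, 12.84 in L6, 12.78 in L8 and 13.37 in L9 of LN, and 13.23 in L1, 12.74 in L2, 13.37 in L3 and 12.75 in L10 of HN. Both groups spread widely and overlapped, and the difference of -0.11 was smaller than the pooled SD of 0.32. NUP58 differed by -0.07 and NUP54 by 0.20, the partners of NUP62 in that complex, and NUP54 by 0.08 without L5.

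The cytoplasmic filaments, where exported complexes are taken apart, had 2 of 4 genes with a higher mean in LN, or 3 without L6 or L3. The count was also 3 with the mean over probes. RANBP2, a very large filament protein that holds RANGAP1 at the pore, differed by 0.26 (SE 0.13), with 3 of 4 LN fetuses above all HN fetuses. Its other 2 probes differed by 0.15 and -0.13. NUP88 differed by 0.17 and NUP214, its partner in docking export receptors, by -0.03 (0.10 to 0.22 and -0.11 to 0.04 with a fetus left out). NUP42, which helps to activate the helicase that strips mRNA of its export proteins, had 6.88 in L5, 7.27 in L6, 6.92 in L8 and 7.19 in L9 of LN, and 7.30 in L1, 7.06 in L2, 7.27 in L3 and 7.31 in L10 of HN. No LN fetus exceeded the highest HN fetus, but the groups overlapped, with a difference of -0.17 (unadjusted p 0.235, -0.11 without L5). The mean over its probes differed by -0.32 (unadjusted p 0.0303), and 75th percentile scaling gave -0.26. The second probe of NUP42 had 5.40 in L5, 5.68 in L6, 5.38 in L8 and 5.59 in L9 of LN, and 5.92 in L1, 5.80 in L2, 6.23 in L3 and 5.98 in L10 of HN. Here all LN fetuses lay below all HN fetuses, and the difference was -0.47 (SE 0.13, unadjusted p 0.0073, adjusted p 0.760), the lowest unadjusted p of any probe of the members.

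The nuclear basket, a fibrous cage on the inner face of the pore, had 3 of 3 genes with a higher mean in LN, and 2 of 3 without L6, L9, L1 or L2. NUP153, which anchors the basket and binds import receptors, had 7.13 in L5, 6.81 in L6, 6.64 in L8 and 6.95 in L9 of LN, and 6.63 in L1, 6.32 in L2, 6.89 in L3 and 6.05 in L10 of HN. The difference of 0.41 was the largest of all members, or 33.0% in signal, but its SE was 0.20 and its unadjusted p 0.0679. L3 of HN lay among the LN fetuses, and L10 was the lowest. The difference was 0.27 without L10 and 0.24 with normexp background correction. TPR, the coiled-coil protein that forms the basket's filaments, had 10.68 in L5, 11.10 in L6, 10.79 in L8 and 11.12 in L9 of LN, and 10.78 in L1, 10.73 in L2, 11.17 in L3 and 10.89 in L10 of HN. The groups lay over each other (difference 0.03, SE 0.15), and its 7 probes gave differences between -0.04 and 0.13. NUP50, a basket protein that helps importin alpha to release its cargo, differed by 0.08 (0.04 without L2 and 0.13 without L6).

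**Figure D4:**
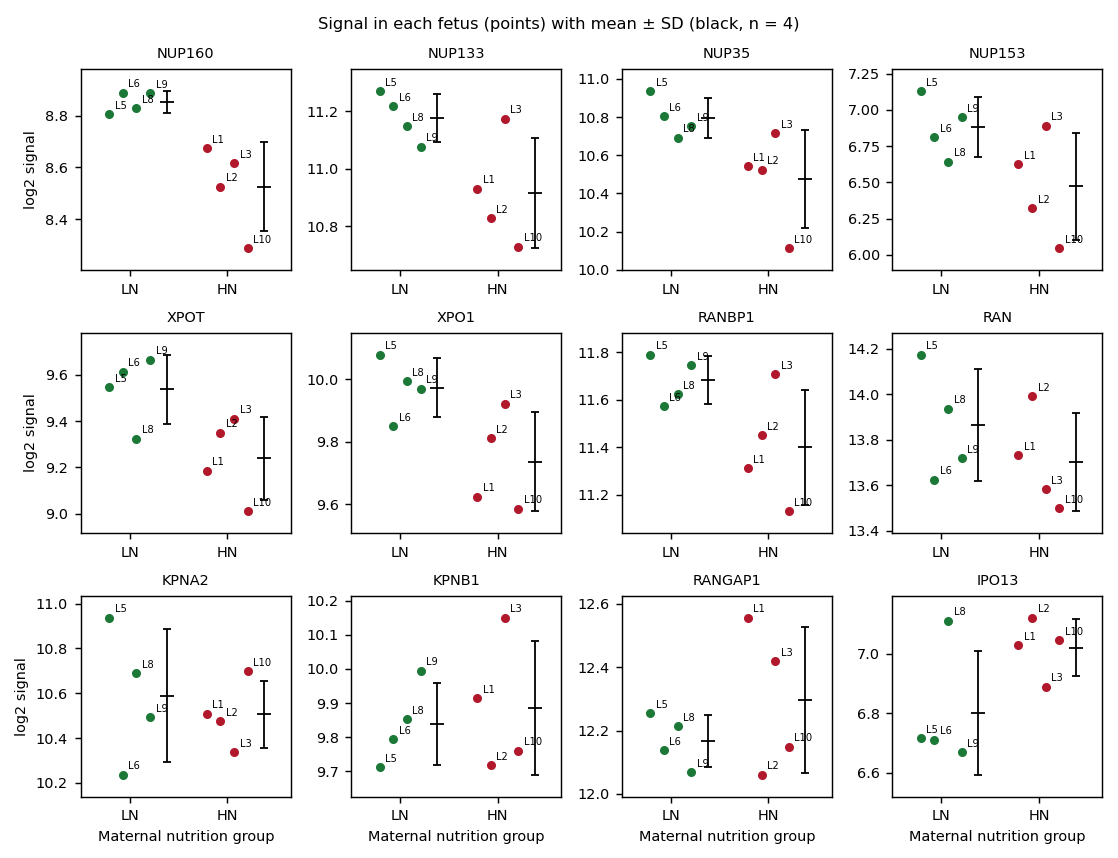
Log2 signal of 12 genes in each fetus (points, labelled) with the mean and SD of each group (black, n = 4), each panel with its own vertical axis that does not start at 0. Only in the NUP160 panel do the groups separate, HN fetus L10 is lowest in 8 of the 12 panels, and for IPO13 LN fetus L8 sits with the HN fetuses.

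The genes of the Ran cycle had a higher mean in LN for 3 of 4, with a median of 0.10. It was 0.06 without L5 and 0.07 without L8 (2 of 4 higher), and 0.17 without L6. With the mean over probes it was 0.05 (2 of 4 higher). RAN, the GTPase itself, had 14.18 in L5, 13.62 in L6, 13.94 in L8 and 13.72 in L9 of LN, and 13.73 in L1, 13.99 in L2, 13.58 in L3 and 13.50 in L10 of HN. L5 was the highest and L10 the lowest, the other fetuses of both groups were mixed, and the difference was 0.16 (SE 0.17, unadjusted p 0.351). Without L5 it was 0.06, without L10 0.09 and without L2 0.26. Its 5 probes all gave a higher mean in LN, between 0.06 and 0.18. RANBP1, which helps RANGAP1 to release RAN from receptors in the cytoplasm, had 11.79 in L5, 11.57 in L6, 11.62 in L8 and 11.75 in L9 of LN, and 11.31 in L1, 11.45 in L2, 11.71 in L3 and 11.13 in L10 of HN. All LN fetuses lay above the HN mean, and 2 of them above all HN fetuses. The difference was 0.28 (SE 0.14, exact permutation p 0.0857, unadjusted limma p 0.0818), and a second probe gave 0.26. RANGAP1, the activator of RAN's GTP hydrolysis, had 12.25 in L5, 12.14 in L6, 12.21 in L8 and 12.07 in L9 of LN, and 12.56 in L1, 12.06 in L2, 12.42 in L3 and 12.15 in L10 of HN. Its LN values lay within the range of the HN fetuses, with a difference of -0.13 (unadjusted p 0.380, -0.04 without L1 and -0.21 without L2). A second RANGAP1 probe gave -0.65, but it was well above background on 1 LN and 3 HN arrays. It thus entered the test through the group with the higher values, and the filter in part fixed its direction. RANBP3, a cofactor of nuclear export, differed by 0.04. RANBP10, which carries the name of a Ran-binding protein but is outside the transport cycle, differed by 0.02, and by -0.02 with normexp background correction.

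The importin alpha adaptors recognise the classical nuclear localisation signal of a cargo and link it to KPNB1. Here 4 of 5 had a higher mean in LN, or 3 without L5 and 5 without L9. KPNA2, an adaptor abundant in dividing cells, had 10.94 in L5, 10.24 in L6, 10.69 in L8 and 10.49 in L9 of LN, and 10.51 in L1, 10.48 in L2, 10.34 in L3 and 10.70 in L10 of HN. L5 was the highest and L6 the lowest, both in LN, and the difference of 0.08 (SE 0.17) was -0.03 without L5. KPNA6, a widely expressed adaptor read by 1 probe, had 5.09 in L5, 5.15 in L6, 5.24 in L8 and 5.01 in L9 of LN, and 4.54 in L1, 4.83 in L2, 5.09 in L3 and 4.81 in L10 of HN. Of the LN fetuses, 2 lay above all HN fetuses, and the difference was 0.31 (SE 0.14, unadjusted p 0.0536). It was 0.12 with 75th percentile scaling (unadjusted p 0.415) and 0.13 with normexp background correction. KPNA1 differed by 0.19 and KPNA4 by 0.13, both adaptors of the same family (0.10 to 0.25 and 0.09 to 0.18 with a fetus left out). KPNA7, known as an adaptor of oocytes and early embryos, had 5.42 in L5, 6.58 in L6, 6.23 in L8 and 4.41 in L9 of LN, and 6.24 in L1, 6.28 in L2, 6.36 in L3 and 5.01 in L10 of HN. The spread within each group (SD 0.96 and 0.64) exceeded the difference of -0.31, which was 0.11 without L9, -0.63 without L10 and -0.11 with normexp background correction.

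Of the import receptors of the importin beta family, 6 of 9 had a higher mean in LN, with a median of 0.10. Without L6 the count was 5 and the median 0.03, and without L10 they were 5 and 0.04. With the mean over probes they were 8 and 0.06. KPNB1, the receptor that carries importin alpha and its cargo, had 9.71 in L5, 9.79 in L6, 9.85 in L8 and 9.995 in L9 of LN, and 9.91 in L1, 9.72 in L2, 10.15 in L3 and 9.76 in L10 of HN. The LN fetuses lay within the HN range except for L5, just below it, and the difference was -0.05 (SE 0.13). Its second probe gave 0.10. IPO13, which imports several factors and also exports cargo, had 6.72 in L5, 6.71 in L6, 7.11 in L8 and 6.67 in L9 of LN, and 7.03 in L1, 7.12 in L2, 6.89 in L3 and 7.04 in L10 of HN. L5, L6 and L9 of LN lay below all HN fetuses while L8 lay among them, and the difference was -0.22 (SE 0.13, exact permutation p 0.114). All 3 detected probes of IPO13 had a lower mean in LN, between -0.29 and -0.21. Among the rest, IPO4 and IPO7, which import histones and ribosomal proteins, differed by 0.26 and 0.21 (0.15 to 0.36 and 0.14 to 0.36 with a fetus left out). IPO11 differed by 0.16, with L6 of LN far above all other fetuses at 11.47, and by -0.03 without L6. The transportins TNPO1, TNPO3 and TNPO2 differed by 0.14, 0.10 and 0.04, and IPO8 by -0.10.

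The export receptors were divided, with 2 of 4 higher and 2 lower in mean. The median was 0.10, but 0.02 without L10, 0.07 without L8 and 0.03 with the mean over probes. Without L6, L1 or L3 3 of 4 were higher, with medians of 0.15, 0.13 and 0.15. XPOT, the exporter of tRNA, had 9.55 in L5, 9.61 in L6, 9.32 in L8 and 9.67 in L9 of LN, and 9.19 in L1, 9.35 in L2, 9.41 in L3 and 9.01 in L10 of HN. Of the LN fetuses, 3 lay above all HN fetuses, and the difference was 0.30 (SE 0.14, exact permutation p 0.0857, unadjusted limma p 0.0554). All 4 of its probes had a higher mean in LN. XPO1, the general exporter of proteins with leucine-rich signals and of ribosomal subunits, had 10.08 in L5, 9.85 in L6, 9.99 in L8 and 9.97 in L9 of LN, and 9.62 in L1, 9.81 in L2, 9.92 in L3 and 9.59 in L10 of HN. Again 3 LN fetuses lay above all HN fetuses, with a difference of 0.24 (SE 0.12, exact permutation p 0.0571). Of its other 3 probes 2 had the same direction, and 1 gave -0.08. The mean over its 4 probes differed by 0.10. XPO7, an exporter known for a part in red cell maturation, had 9.19 in L5, 8.82 in L6, 8.72 in L8 and 8.80 in L9 of LN, and 8.85 in L1, 9.12 in L2, 9.10 in L3 and 9.14 in L10 of HN. L5 was the highest of all fetuses and the other LN fetuses the lowest, for a difference of -0.17 (unadjusted p 0.256, -0.27 without L5). XPO4 differed by -0.03.

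The receptor for bulk mRNA export is the dimer of NXF1 and NXT1, which does not depend on RAN. NXF1 had 12.46 in L5, 12.22 in L6, 12.61 in L8 and 12.29 in L9 of LN, and 12.54 in L1, 12.68 in L2, 12.51 in L3 and 12.42 in L10 of HN. The LN fetuses L6 and L9 were below all HN fetuses and the other two within their range (difference -0.14, SE 0.13, -0.08 without L6, -0.09 without L2 and -0.21 without L8), and its other probes gave 0.12 and -0.28. NXT1 had 9.93 in L5, 9.50 in L6, 9.80 in L8 and 9.86 in L9 of LN, and 9.55 in L1, 9.69 in L2, 9.60 in L3 and 9.60 in L10 of HN. There 3 LN fetuses lay above all HN fetuses and L6 below them, with a difference of 0.16 (SE 0.13, exact permutation p 0.143) that was 0.25 without L6. The means of the 2 partners thus had opposite signs, and neither difference passed the test.

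The array carried several probes for many of the genes, which read the same RNA on the same arrays as the probe used above. Of the 67 other detected probes, 50 had a higher mean in LN, with a median of 0.10, and these come from the same 8 fetuses. Counting all 115 detected probes, 85 were higher, or 73.9%, beside 50.3% of all detected probes. Of 33 genes with several detected probes, all probes had 1 direction in 22 genes and both directions occurred in 11 (IPO8, KPNB1, NUP43, NUP155, NUP188, NUP214, NXF1, RANBP2, RANBP3, TPR and XPO1). Past an unadjusted limma p of 0.05 lay 3 probes with higher values in LN (2 of NUP160 and 1 of NUP133), beside 3.35% of all detected probes, and 2 with lower values, beside 2.97%. With 115 probes these counts were near or below those shares. The lower probes were 1 of NUP42 and the RANGAP1 probe that was at background on 3 of 4 LN arrays, for which the filter in part fixed the direction.

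**Figure D5:**
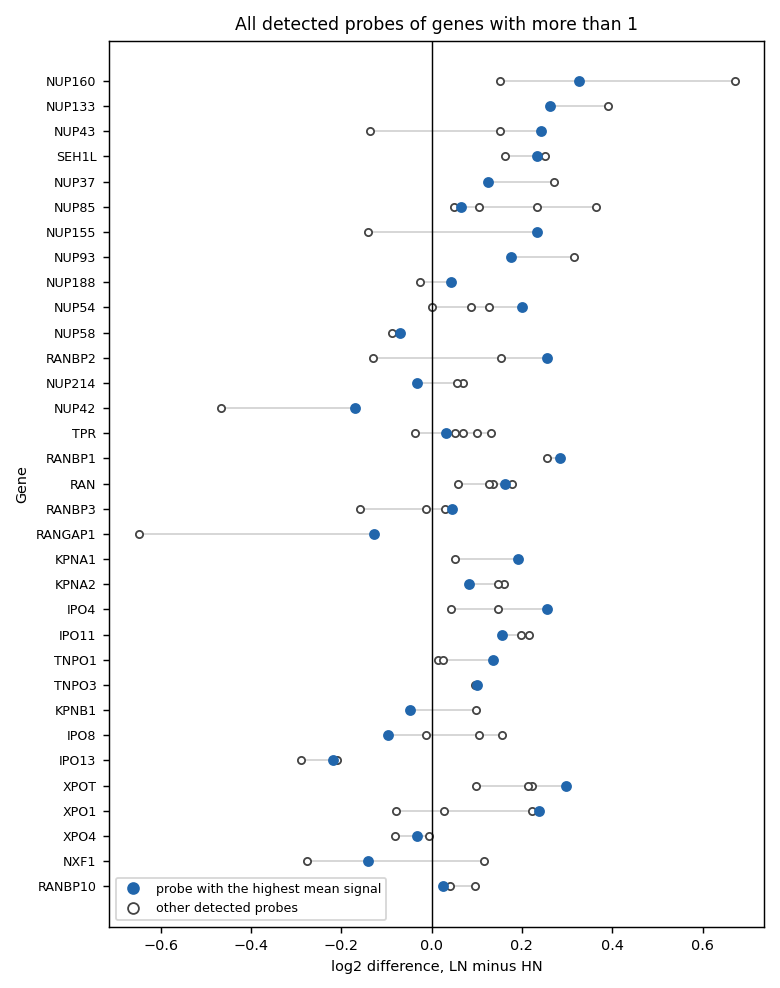
Log2 difference between LN and HN for each detected probe of the 33 genes with more than 1, with the probe of highest mean signal in blue and the others open, joined by a grey line. Both directions occur in 11 genes, while NUP160, RAN, NUP85, SEH1L and XPOT lie above 0 and NUP42 and IPO13 below 0 with all their probes. The RANGAP1 probe at -0.65 was at background on 3 of 4 LN arrays.

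Genes of the same pathway that the name rule does not take were read from a separate list. Of 49 listed symbols, 42 had a matched probe, and all of these were detected. POM121, POM121C, NDC1, NUPL1, NUPL2, TMEM33 and NCBP1 had no matched probe, NUPL1 and NUPL2 being older symbols of the members NUP58 and NUP42. Of the 42, 32 had a higher mean in LN, beside 51.6% of all genes tested, and 10 a lower. The median was 0.07, beside 0.01 over all genes tested. By group, 4 of 6 further pore proteins, 14 of 16 further transport factors and 14 of 20 mRNA export adaptors were higher, and 0 of the 42 passed after adjustment. Past an unadjusted limma p of 0.05 were 0 higher genes of the 42, beside 3.3% of all genes, and 2 lower, beside 2.75%. PCID2, a subunit of the complex that brings mRNA to the pore, had 11.32 in L5, 11.35 in L6, 11.45 in L8 and 11.53 in L9 of LN, and 11.85 in L1, 11.83 in L2, 11.70 in L3 and 11.65 in L10 of HN. All LN fetuses lay below all HN fetuses, as for 1.56% of all genes, and the difference was -0.35 (exact permutation p 0.0286, adjusted limma p 0.760). LENG8, a protein related to that complex, had 11.53 in L5, 11.10 in L6, 11.80 in L8 and 11.25 in L9 of LN, and 12.24 in L1, 12.02 in L2, 11.78 in L3 and 12.22 in L10 of HN. The groups overlapped only through L8 of LN and L3 of HN, and the difference was -0.64 (exact permutation p 0.0571). Chosen after their values were seen, RCC1, the factor that loads RAN with GTP, DDX19A, the pore helicase of mRNA export, and SEM1, a small partner of PCID2, had LN values all above the HN values, 3 of 42 beside 2.59% of all genes. Their differences were 0.30, 0.24 and 0.17. CSE1L, the exporter that returns importin alpha to the cytoplasm, differed by 0.07.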

How the data were processed

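Liver RNA of 8 fetuses (4 LN, 4 HN) was measured on 1-colour Agilent bovine arrays. Per the file headers, the deposited intensity of each spot was background-subtracted and detrended by Feature Extraction 11.0.1.1, with no scaling between arrays. A second file of the authors holds log2 values of the probes that passed the background test on every array, and quantile normalization of the intensities gave these values back to within 0.0423. Here log2 intensities of 43637 probes were quantile normalized, control spots and 16 probes with outlier spots being left out. Accessions of 26740 probes matched a gene of the RefSeq table (assembly ARS-UCD2.0). The array design uses another build, so coordinates are not given, and no sequence is printed. The groups were tested with limma (version 3.58.1, R 4.3.3, 2-sided, Benjamini-Hochberg adjustment over all detected probes) and with exact 2-sided permutation tests over the 70 orderings of 4 and 4 fetuses. The limma p-values set each difference against the spread between these fetuses within a group, which holds no variation between slides. The permutation p-values set it against other divisions of the same fetuses. The functions were tested on simulated data.

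Members and lists were chosen with earlier results of these data known. Genes were given in full with an unadjusted p of at most 0.05, no overlap, one of the 5 largest differences in each direction, or a place in a list of core genes, and pathway genes outside the name rule with an unadjusted p of at most 0.05. The alternatives were normexp background correction (offset 50), 75th percentile scaling, the authors' table, no filter or a stricter filter on dim probes, the mean over probes, every probe counted, eBayes with trend and robust settings, Student's test, slide position as a block, and each fetus left out. Their use for the count of higher means was chosen after seeing the data.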

Additional observations from a re-analysis of the deposited data

Results flagged for a closer look

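In 3 of the 40 groups of 4 fetuses behind the genes given in full, 1 fetus stood far from the rest of its group. IPO13 in LN fetus L8 had a log2 signal of 7.11, where the nearest LN fetus had 6.72. KPNA7 in HN fetus L10 had 5.01, where the nearest HN fetus had 6.24. XPO7 in HN fetus L1 had 8.85, where the nearest HN fetus had 9.10. In each case the gap to the nearest fetus, divided by the range of the group, was above Dixon's 95% critical value for 4 samples. Over all 48 genes this held for 6 of 96 groups, and chance gives about 1 in 20, or 4.8. The others were IPO7 in HN fetus L3, RANBP10 in LN fetus L6 and TNPO2 in LN fetus L5.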

How the results depend on the processing

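The median difference over the members stayed above 0 under every alternative run, between 0.0716 and 0.167 with a fetus left out, and 0 members passed the adjusted threshold under any (unadjusted counts follow). The count of members with a higher mean in LN lay between 30 and 38 with a fetus left out. Members higher in LN at an unadjusted p of 0.05 (1 as reported) numbered 2 with 75th percentile scaling (beside 2.51% of all genes) and with the authors' table (3.49%), 6 with normexp (4.73%) and with no filter (4.27%), 4 with trend and robust settings (3.77%), 5 with Student's test (4.37%), 0 with slide position as a block (2.43%), 3 with the mean over probes (3.75%), and 0 to 9 with a fetus left out (9 without HN fetus L3, beside 4.15%, 2 without L6, 3.39%, or L8, 3.02%, and 0 without L9, 2.82%, or L10, 1.89%). With every probe counted they were 3 probes of 2 genes (3.35% of all probes). Members lower in LN at that p (0 as reported) numbered 1 with 75th percentile scaling (IPO13, beside 4.59%), 2 with the mean over probes (3.06%), 2 probes with every probe counted (2.97%), and 0 to 1 with a fetus left out (IPO13 without L8, beside 3.01%, and NUP210 without L2, beside 2.92%). In both pairs 1 is RANGAP1, through its probe that was detected on 1 LN and 3 HN arrays. Higher without overlap (1 as reported) were 2 with 75th percentile scaling (2.40%) and with normexp (2.75%), 3 probes with every probe counted (2.44%), and 1 to 9 with a fetus left out (9 without L3, 6 without L6, 5 without L8, 3 without L9, beside 3.23% to 5.75%), and lower without overlap 1 probe with every probe counted (1.69%) and 0 to 1 with a fetus left out (1 without L5, beside 2.53%, L8, 3.37%, or L2, 3.42%). The direction turned for KPNA2 without L5 (-0.0326, with 0.201 without L6 as the other end of its range), KPNA7 without L9 (0.108, with -0.630 without L10), KPNB1 without L3 (0.0410, with -0.103 without L2) and with the mean over probes (0.0254), NUP62 without L3 (0.00951, with -0.257 without L9), and TPR without any one of L6, L9, L1 or L2 (-0.0336 at the lowest, and 0.123 without L3). The cause was not tested. In 331 other instances a gene given in full kept its direction under an alternative. LN and HN fetuses share no number in the labels, so position on the slide was the block tried.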
